A study of Mus musculus with 48 samples.

Results

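A set of 10 genes of the endocannabinoid system was followed through the hippocampus of mice lacking the cannabinoid type-1 receptor (CB1) in one class of neuron. They are *Cnr1*, which encodes CB1, and 9 enzyme genes, *Dagla*, *Daglb*, *Mgll*, *Faah*, *Napepld*, *Abhd4*, *Abhd6*, *Abhd12* and *Gde1*, taken by symbol from the 24421 genes of the count table. All 10 were present, and all 10 passed the filter on low counts in each of the 15 comparisons, since the lowest count of any of them in any library was 809 reads.

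RNA came from the Cornus Ammonis (CA) of 48 male mice, 1 library per mouse, sampled in the basal state (home cage) or after 5 min in an open field arena. By the study's text, the open field tissue was isolated 1 h after the exposure. The mice were 8 weeks old by their labels and 8 to 10 weeks old by the protocol. In the Glu-CB1 line, mice with a floxed CB1 gene (CB1f/f) carried Cre recombinase under regulatory elements of *nex1*, for deletion in glutamatergic neurons of the dorsal telencephalon, and this line gave 5 Glu-CB1-WT and 7 Glu-CB1-KO libraries in the basal state and 5 and 7 after open field. In the GABA-CB1 line, Cre was under regulatory elements of *dlx5/6*, for deletion in GABAergic neurons of the forebrain, and this line gave 6 GABA-CB1-WT and 6 GABA-CB1-KO libraries in the basal state and 7 and 5 after open field. KO mice were compared with CB1-WT littermates of their line, and the floxed or Cre alleles of these littermates are not given in the sources used here. CB1 is left intact in all cells outside the reach of each Cre, and the study had picked its mice partly by dissection purity and behavior.

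CB1 is a presynaptic receptor that lowers transmitter release when it binds endocannabinoids made by the postsynaptic cell. Its main brain ligand, 2-arachidonoylglycerol (2-AG), is made by the diacylglycerol lipases (*Dagla*, *Daglb*) and broken down by monoacylglycerol lipase (*Mgll*) and by the serine hydrolases *Abhd6* and *Abhd12*. The other ligand, anandamide, is an N-acylethanolamine that can be made by the phospholipase D encoded by *Napepld* or by a route through *Abhd4* and *Gde1*, and it is broken down by fatty acid amide hydrolase (*Faah*). In the hippocampus, CB1 is densest on the terminals of cholecystokinin interneurons and sparser on glutamatergic terminals.

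Between 25892654 and 34091080 reads were counted on genes per library (median 30975561). All libraries held neuronal markers, with a summed level of 6 glutamatergic neuron markers between 6767 and 8358 CPM (counts scaled to the normalized library size). The sum of 6 GABAergic neuron markers lay between 1024 and 1286 CPM. By region, 6 CA1 markers summed to 623.9 to 882.8 CPM and 5 thalamus markers to 88.7 to 132 CPM. The study had removed the dentate gyrus, and 7 dentate granule cell markers summed to 156.5 to 424.4 CPM. The share of tissue from outside the CA was not tested. Of the 48 libraries, 14 stood apart on the first principal component of the deviations from the group means, which held 14.5% of that variance, and they were spread over all 8 groups (1 to 3 per group). All 14 came from mice with low animal numbers in their labels, below 1000 in the Glu-CB1 line or below 600 in the GABA-CB1 line. The share of mice in this low range differed between KO and WT in the basal groups of both lines and in the open field groups of the Glu-CB1 line. It was larger in KO mice of the Glu-CB1 line in both states and smaller in basal GABA-CB1-KO mice. Why these libraries stood apart was not tested. In 2 libraries, 1 GABA-CB1-KO mouse after open field and 1 GABA-CB1-WT mouse in the basal state, 5 markers of the choroid plexus summed to 4025 and 1497 CPM against at most 627 CPM in the other libraries. For *Cnr1*, *Faah* and *Dagla*, values below are also given without these 2 libraries. In bulk tissue, fewer cells of a type and less RNA per cell cannot be told apart.

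Compared per length (CPM per kb of exon, with TMM normalization over the 48 libraries), the enzyme genes kept a steady order. *Abhd12* was highest, with library values between 143 and 165 CPM per kb, and *Gde1* followed between 105 and 129. The ranges of these genes did not overlap in any of the 8 groups. *Faah* (41.9 to 52.9), *Mgll* (38.9 to 51.7) and *Dagla* (32.1 to 44.8) formed a middle tier in which neighbors overlapped in most groups. *Abhd6* (24.8 to 30.3) and *Abhd4* (20.2 to 27.1) came next, and *Daglb* (9.82 to 13.2) and *Napepld* (7.12 to 12.1) were lowest and overlapped in 7 of 8 groups. Among the 2-AG synthases, *Dagla* thus exceeded *Daglb* in each library, and among the 2-AG hydrolases the order per length was *Abhd12*, *Mgll*, *Abhd6*. The level of an mRNA does not give the activity of its enzyme.

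**Figure D1:**
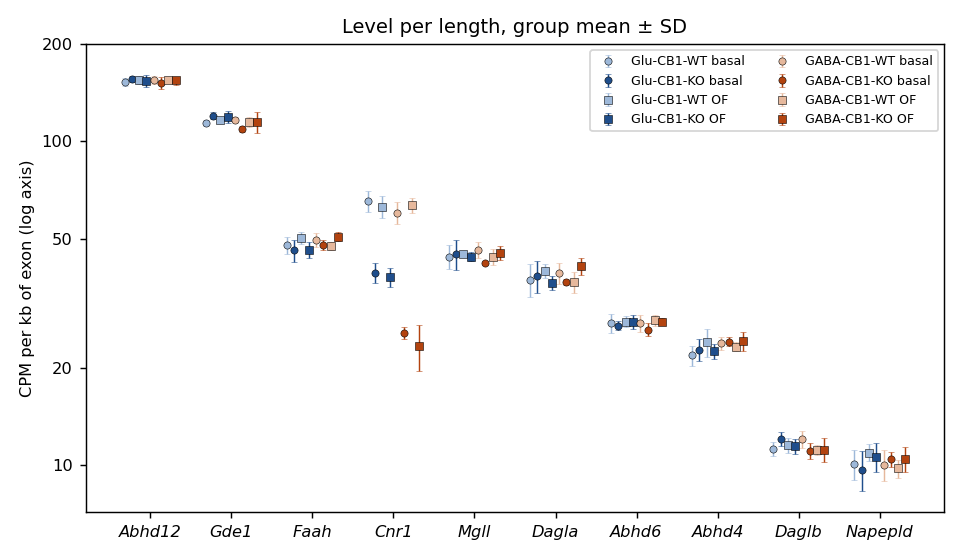
Level of the 10 genes per length (CPM per kb of exon, log axis) as mean and SD of each of the 8 groups, with circles for the basal state and squares for open field (OF). The 9 enzymes keep nearly 1 level in all groups, whereas Cnr1 moves from 60 to 65 in WT groups down to about 23 in GABA-CB1-KO mice after open field.

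*Cnr1* was the member with the widest range of group means, from 135 to 379 CPM. In the 4 WT groups it ranked below *Abhd12* and *Gde1* only, with means between 60.2 and 65.3 CPM per kb, above *Faah* in each WT library. In Glu-CB1-KO mice it lay at 39.3 (SD 2.75, n = 7) in the basal state and 38.1 (SD 2.55, n = 7) after open field, overlapping with *Mgll* and *Dagla*. In GABA-CB1-KO mice it lay at 25.6 (SD 1.12, n = 6) and 23.3 (SD 3.71, n = 5), overlapping with *Abhd4*.

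The *Cnr1* row of the table spans chr4:33924632-33948831 of mm10 (plus strand) and holds 2 exons, of 527 and 5280 bases. All 1419 coding bases lie in exon 2. Which bases Cre removes is not given in the sources used here, so reads from exon parts that remain after recombination would still be counted.

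In single libraries, *Cnr1* separated into 3 tiers. Glu-CB1-WT mice in the basal state had 338, 376, 376, 395 and 412 CPM, and after open field 330.3, 340.0, 369, 389 and 396 CPM. GABA-CB1-WT mice had 310.8 to 389 CPM in the basal state (median 347, n = 6) and 336 to 394 CPM after open field (median 368, n = 7). These WT groups overlapped with each other. Glu-CB1-KO mice had 208 to 248 CPM in the basal state (median 226, n = 7) and 204 to 249 CPM after open field (median 220, n = 7). GABA-CB1-KO mice had 141 to 158 CPM in the basal state (median 149.8, n = 6) and 100.3, 129.7, 143, 147 and 155 CPM after open field. Every KO library was below every WT library of both lines, and every GABA-CB1-KO library was below every Glu-CB1-KO library. The lowest value came from the GABA-CB1-KO mouse with the highest choroid plexus level.

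**Figure D2:**
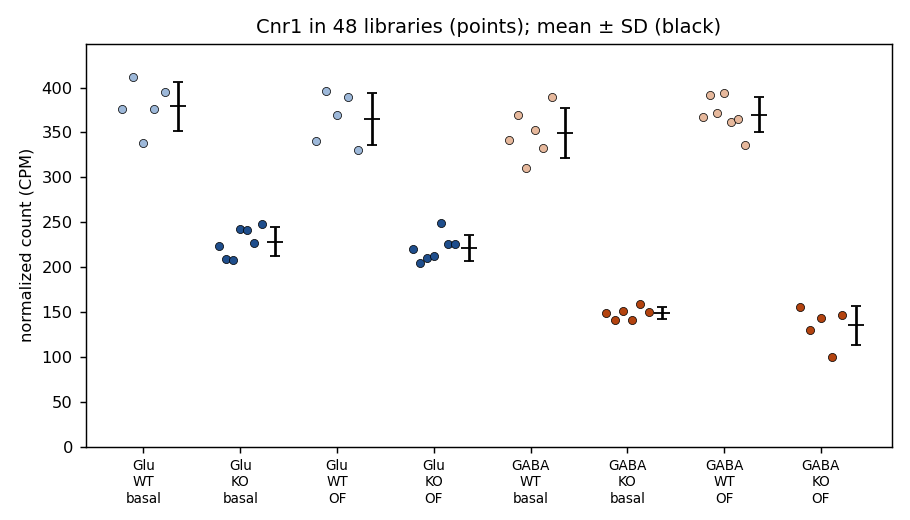
Cnr1 in CPM in each of the 48 libraries (points) of the 8 groups, with the mean and SD of each group in black; OF is open field. The tiers do not overlap, with WT mice of both lines above 310, Glu-CB1-KO mice between 204 and 249, and GABA-CB1-KO mice at 158 or below.

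By the quasi-likelihood test of edgeR, with p-values adjusted over all genes after Benjamini and Hochberg, *Cnr1* was the member that fell in KO mice in all 4 comparisons. In the Glu-CB1 line the log2 fold change was -0.73 in the basal state (SE 0.055, adjusted p = 1.7e-05) and -0.72 after open field (SE 0.055, adjusted p = 7.59e-06). In GABA-CB1 mice it was -1.23 in the basal state (SE 0.049, adjusted p = 3.8e-09) and -1.45 after open field (SE 0.086, adjusted p = 6.84e-07). Without the 2 libraries with choroid plexus markers, the last value was -1.36 (adjusted p = 3.85e-09). These calls of 1 of 10 members stood beside 0.0198%, 0.272%, 0.245% and 0.0199% of all genes called in the same 4 comparisons. Since *Cnr1* is the targeted gene, its fall checks the genotype labels: all 48 libraries followed them. It does not check the state labels, or the line labels of the WT mice.

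Glu-CB1-KO mice had 60.2% (95% interval 55.5 to 65.3) of the WT level of *Cnr1* mRNA in the basal state and 60.6% (55.9 to 65.7) after open field. GABA-CB1-KO mice had 42.5% (39.5 to 45.7) and 36.6% (32.2 to 41.5), or 41.6% and 38.9% without the 2 libraries with choroid plexus markers. The shares lost in the 2 lines, 39.8% and 57.5% in the basal state, added up to 97.3% (95% interval 92.0 to 102.7). After open field, 39.4% and 63.4% added up to 102.8% (96.6 to 109.0), and over both states the sum was 100.2% (96.0 to 104.5). Without those libraries the sums were 98.2%, 100.5% and 99.4%. A sum of 100% lay within each of these intervals, which treat the lines as independent and cover the spread between mice only. Sums somewhat below or above 100% lay within them too. Reads from exon parts that remain after recombination would lower the shares lost. The part of other cells in the *Cnr1* level was not tested.

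The larger fall in the GABA-CB1 line was itself tested. The effect in GABA-CB1 mice minus that in Glu-CB1 mice was, as a log2 value, -0.50 in the basal state (95% interval -0.66 to -0.34, adjusted p = 0.0017), -0.73 after open field (-0.94 to -0.52, adjusted p = 0.000875) and -0.62 over both states (-0.75 to -0.48, adjusted p = 3.03e-08). Without the 2 libraries with choroid plexus markers, *Cnr1* differed by -0.53, -0.64 and -0.59 (adjusted p = 0.000798, 8.69e-05 and 6.88e-10). With the replicate number as a block, adjusted p was 0.075 in the basal state and 0.0744 after open field. This block pairs no mice here, and it leaves out libraries whose number is missing from another group. Line and Cre driver are the same factor in this design and cannot be told apart.

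Whether the loss of *Cnr1* depended on the state was tested within each line. In the Glu-CB1 line the effect after open field minus that in the basal state was 0.01 (95% interval -0.15 to 0.18, adjusted p = 1.0). In the GABA-CB1 line it was -0.22 (-0.42 to -0.01), under 0.05 in edgeR before adjustment and not after it (adjusted p = 0.321). This value shrank to -0.13 (adjusted p = 0.488) without open field GABA-CB1-KO replicate 4, the library with the highest choroid plexus level, and to -0.10 (adjusted p = 0.57) without both libraries with such markers. Open field against basal state, over all mice, gave -0.04 for *Cnr1* (95% interval -0.11 to 0.03, adjusted p = 0.562). GABA-CB1-WT against Glu-CB1-WT gave -0.05 (-0.15 to 0.05, adjusted p = 1.0).

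No enzyme gene passed the threshold between KO and WT mice in any line or state. In Glu-CB1-KO mice, edgeR called 0 of 9 enzymes in the basal state and 0 of 9 after open field, with 2 enzymes under an unadjusted p of 0.05 in each. In GABA-CB1-KO mice it called 0 of 9 and 0 of 9, with 3 and 2 enzymes under an unadjusted p of 0.05. At that unadjusted level were 541 of 15138 and 1051 of 15078 genes in the Glu-CB1 line. In the GABA-CB1 line they were 1230 of 15082 and 2000 of 15097 genes. DESeq2 also called 0 enzymes in each of the 4 comparisons. Over all genes, DESeq2 called 2 higher and 5 lower of 19904, and 84 and 39 of 15701, in the Glu-CB1 line. In the GABA-CB1 line it called 24 higher and 78 lower of 16466, and 70 and 73 of 9579. The enzymes' log2 fold changes ran from -0.06 to 0.10 and from -0.12 to 0.03 in Glu-CB1 mice, and from -0.13 to 0.06 and from -0.01 to 0.16 in GABA-CB1 mice. Their 95% intervals all lay between -0.26 and 0.28, and the widest belonged to *Napepld*. Medians over the 9 enzymes were 0.03, -0.02, -0.07 and 0.04, beside medians over all genes tested between -0.0025 and 0.0017. With both states together, KO and WT mice again differed in 1 of 10 members, *Cnr1*, with -0.73 for the Glu-CB1 line (adjusted p = 7.49e-12) and -1.34 for the GABA-CB1 line (adjusted p = 2.23e-15), beside 0.241% and 0.449% of all genes. Of the 9 enzymes, 3 had a positive and 6 a negative value in the Glu-CB1 line, and 4 and 5 in the GABA-CB1 line, within an interval of -0.18 to 0.17.

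**Figure D3:**
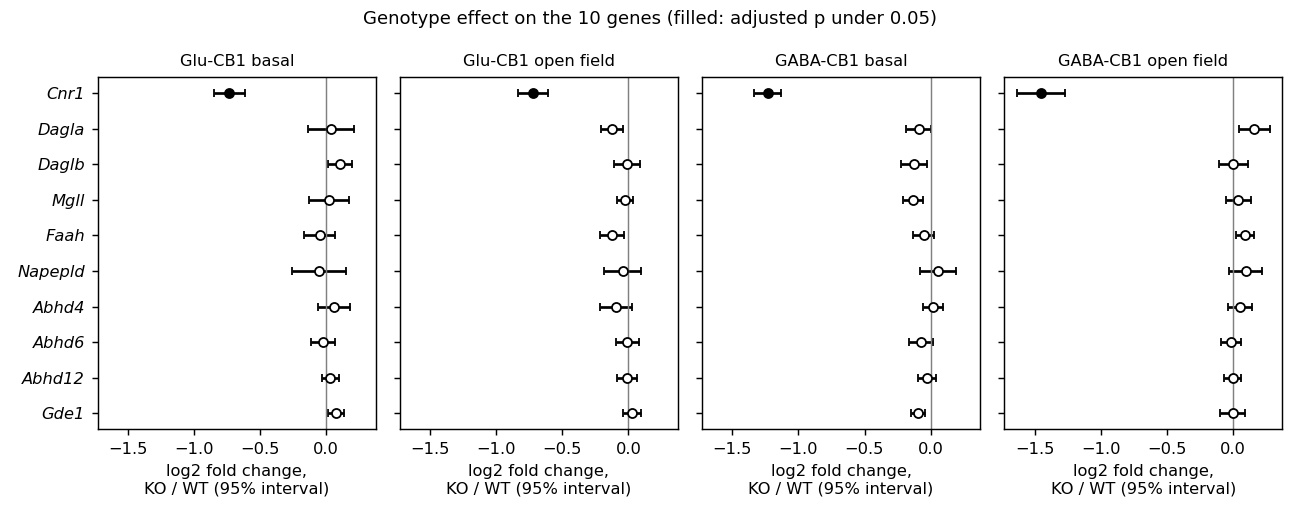
Log2 fold change of KO over WT with its 95% interval for the 10 genes in the 4 comparisons of line and state, filled where the adjusted p is under 0.05. Cnr1 is the filled point in each panel, between -0.72 and -1.45, and all 9 enzymes are open and lie within -0.26 and 0.28.

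Among the 2-AG enzymes, *Mgll* and *Daglb* came closest to a genotype effect in the basal state. *Mgll*, which ends most 2-AG signaling, had 190 to 197 CPM in basal GABA-CB1-KO mice (median 195, n = 6) and 199 to 228 CPM in their WT littermates (median 214.9, n = 6). These groups did not overlap, as was so for 3 of 10 members (*Cnr1*, *Mgll* and *Gde1*) beside 0.687% of all genes. The log2 fold change of *Mgll* was -0.13 (95% interval -0.21 to -0.06, adjusted p = 0.219). In the other 3 comparisons *Cnr1* was the 1 member of 10 whose groups were separate, beside 0.193%, 0.726% and 0.97% of all genes. *Daglb* differed by 0.10 in basal Glu-CB1-KO mice (0.01 to 0.19) and by -0.12 in basal GABA-CB1-KO mice (-0.22 to -0.02), with adjusted p = 0.999 and 0.521.

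The genotype effects of the enzymes were then set against each other between lines. In the basal state, 2 of 10 members, *Cnr1* and *Gde1*, differed between lines, beside 0.279% of all genes. *Gde1* encodes a glycerophosphodiesterase that releases anandamide from its glycerophospho precursor. Glu-CB1-WT mice had 171.9, 171.9, 173, 175 and 179.9 CPM and Glu-CB1-KO mice 177 to 191 CPM (median 184, n = 7). GABA-CB1-WT mice had 173 to 184 CPM (median 178, n = 6) and GABA-CB1-KO mice 162 to 171 CPM (median 169, n = 6). Its level was thus higher in most Glu-CB1-KO than WT libraries, with a slight overlap, and lower in each GABA-CB1-KO than WT library. The single effects, 0.08 (adjusted p = 0.999) and -0.09 (adjusted p = 0.273), did not pass, whereas their difference was -0.17 (95% interval -0.24 to -0.09, adjusted p = 0.0369). This call was lost with no filter on low counts (adjusted p = 0.0612), with all 48 libraries in one fit (0.115), with the replicate block (0.516) and in 15 of 24 fits that left out 1 library (0.0252 to 0.0805 over all 24).

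After open field, 2 of 10 members, *Cnr1* and *Faah*, differed between lines, beside 0.568% of all genes. *Faah*, the anandamide hydrolase, had 178, 190.6, 194.9, 198.7 and 199 CPM in Glu-CB1-WT mice and 159.8 to 190.5 CPM in Glu-CB1-KO mice (median 181, n = 7). GABA-CB1-WT mice had 174 to 189 CPM (median 182, n = 7) and GABA-CB1-KO mice 188, 188, 192, 199 and 201 CPM. KO values lay toward the low side in the Glu-CB1 line and toward the high side in the GABA-CB1 line, with overlap in both. The effects were -0.12 (adjusted p = 0.422) and 0.09 (adjusted p = 0.278), and their difference was 0.22 (95% interval 0.11 to 0.32, adjusted p = 0.0498). *Faah* was called in 5 of 24 fits that left out 1 library (adjusted p 0.0214 to 0.117) and in 2 of the 10 other settings, DESeq2 (0.00799) and the first component as a covariate (0.00886). The other 8 settings lost the call (adjusted p 0.0522 to 0.436), with 0.23 (adjusted p = 0.0653) without the 2 libraries with choroid plexus markers and 0.21 (adjusted p = 0.164) without the 14 libraries that stood apart. *Faah* moved with the first component within groups (r = 0.47, n = 48).

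*Dagla*, which makes the 2-AG released at synapses, had the same pattern after open field and just missed. It had 214, 216, 221, 233 and 239 CPM in Glu-CB1-WT mice and 189 to 217 CPM in Glu-CB1-KO mice (median 205, n = 7). GABA-CB1-WT mice had 181 to 233 CPM (median 205, n = 7) and GABA-CB1-KO mice 217, 224, 226, 241 and 251.5 CPM. The effects were -0.12 (adjusted p = 0.376) and 0.16 (adjusted p = 0.267), and their difference was 0.29 (0.15 to 0.43, adjusted p = 0.0501). DESeq2 called it (adjusted p = 0.0105), and so did edgeR with the first component as a covariate (0.0299) or in 5 of 24 fits that left out 1 library (0.0148 to 0.123 over all 24). The GABA-CB1-KO library with choroid plexus markers held the highest of these *Dagla* values, and without the 2 such libraries the difference was 0.26 (adjusted p = 0.109). Over both states, *Cnr1* was the 1 of 10 members that differed between lines, beside 0.732% of all genes, and the enzymes' differences ran from -0.11 to 0.13.

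**Figure D4:**
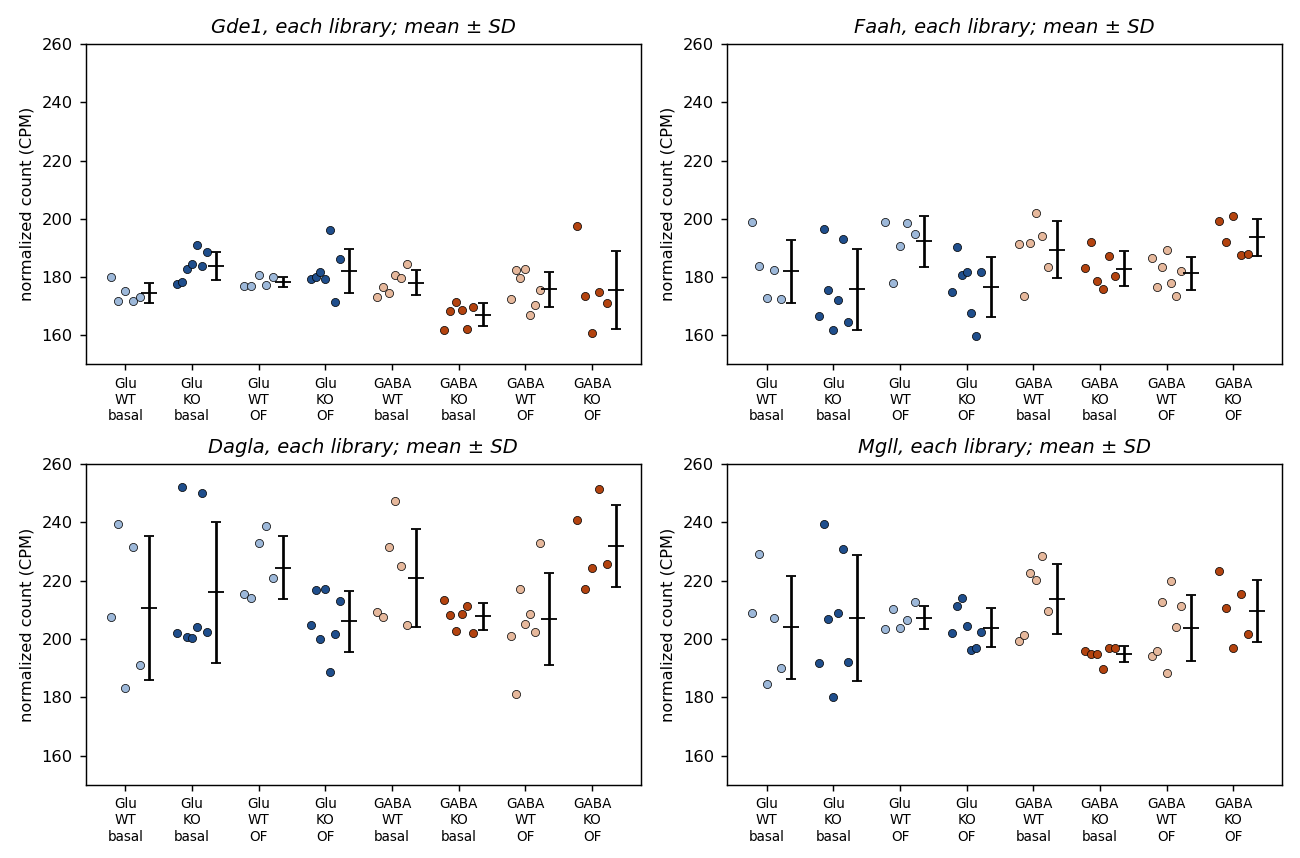
Gde1, Faah, Dagla and Mgll in CPM in each library (points) of the 8 groups, with mean and SD in black, on axes from 150 to 260. KO and WT points overlap in most pairs of groups, apart from Gde1 and Mgll in the basal GABA-CB1 mice, and for Faah and Dagla after open field the KO points sit low in the Glu-CB1 line and high in the GABA-CB1 line.

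Marker genes of other cells moved in some of the same contrasts. A set of 4 markers of somatostatin and parvalbumin interneurons summed to 151 to 199 CPM in basal GABA-CB1-WT mice and 135 to 156 CPM in GABA-CB1-KO mice, and to 159 to 195 and 133 to 152 CPM after open field. In Glu-CB1 mice the same sum was 142 to 207 CPM in WT and 157 to 228 CPM in KO mice in the basal state, and 119 to 179 and 177 to 205 CPM after open field. By edgeR, 1 of these 4 markers was called higher in Glu-CB1-KO mice after open field (median 0.49 over the 4, log2) and 0 in the basal state. In GABA-CB1-KO mice 0 of 4 were called in either state. Over both states 2 were called higher in Glu-CB1-KO and 2 lower in GABA-CB1-KO mice. In the difference between lines after open field, 3 of 4 were called, all lower in the GABA-CB1 line (median -0.77), and in the basal state 1 of 4 was (median -0.43). Of 7 cholecystokinin interneuron markers, 0 were called in these comparisons. The 6 glutamatergic markers summed to 7140 to 7644 CPM in GABA-CB1-WT and 7734 to 7900 CPM in GABA-CB1-KO mice after open field, which did not overlap, and to 7552 to 8358 and 7119 to 7574 CPM in Glu-CB1-WT and Glu-CB1-KO mice, which overlapped slightly. The 6 GABAergic markers overlapped in both lines (1132 to 1226 and 1122 to 1178 CPM in GABA-CB1 mice, 1048 to 1222 and 1157 to 1286 CPM in Glu-CB1 mice). In that difference after open field, 1 glutamatergic marker was called higher and 1 GABAergic marker lower. For KO against WT, 1 of the 6 glutamatergic markers was called lower in the Glu-CB1 line in each state, and 0 in the GABA-CB1 line. The medians over the 6 after open field were -0.007 and 0.034. No GABAergic marker was called for KO against WT in either line or state. The part of these markers in the *Gde1*, *Faah* and *Dagla* values was not tested.

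The state had no effect past the threshold on any member. The effect of genotype after open field minus that in the basal state was called by edgeR for 0 of 10 members in each line, beside 0% of all genes in both. DESeq2 called 0 members in either line, beside 0 genes in the Glu-CB1 line and 38 higher and 24 lower of 8642 genes in the GABA-CB1 line. At an unadjusted p of 0.05 in edgeR, the Glu-CB1 line gave 0 members, beside 379 of 15355 genes. The GABA-CB1 line gave 4, beside 2237 of 15374 genes. Those 4 were *Cnr1*, *Dagla* (0.25, 95% interval 0.11 to 0.40, adjusted p = 0.21), *Mgll* (0.17, 0.06 to 0.29, adjusted p = 0.211) and *Faah* (0.15, 0.05 to 0.24, adjusted p = 0.211). All 9 enzymes had a positive value there, with a median of 0.09 beside 0.0051 over all genes. With the first component as a covariate, *Dagla* was called (adjusted p = 0.0472), and without the 2 libraries with choroid plexus markers it was 0.21 (adjusted p = 0.344). Marker lists shifted in the same contrast with 0 calls, with medians of 0.28 for 7 dentate granule cell markers, 0.16 for 7 CA3 and CA2 markers, 0.08 for the glutamatergic, -0.11 for the GABAergic and 3.68 for the choroid plexus markers. Within groups, *Dagla*, *Mgll* and *Faah* had r between 0.36 and 0.56 with the dentate and the CA3 and CA2 lists (n = 48, a description), and the part of these markers was not tested.

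Open field against basal state called 0 of 10 members over all mice by edgeR, beside 8.63% of all genes, and 0 of 10 within the Glu-CB1 and GABA-CB1 lines, beside 1.3% and 1.03%. DESeq2 also called 0. A single member, *Abhd6*, was under an unadjusted p of 0.05 in edgeR over all mice, beside 3353 of 15570 genes. Its value was 0.04 on the log2 scale (0.0015 to 0.081, adjusted p = 0.21). Over all mice, the 9 enzymes' intervals lay between -0.08 and 0.13. No member was called between WT mice of the 2 lines either (0 of 10 by edgeR and by DESeq2, beside 0% of all genes). At an unadjusted p of 0.05 in edgeR there were 0 members, beside 571 of 15570 genes. The enzymes' intervals lay between -0.20 and 0.11.

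Of the further endocannabinoid genes, 47 were listed by role and 40 were tested in the fits over a whole line. Not tested were *Cnr2*, *Gpr55*, *Gpr18*, *Gpr119* and *Trpv1* among the receptors, *Hrasls5* and *Alox15*, each with a mean below 0.25 CPM. In the KO against WT comparisons, 1 gene was called (1 of 39 tested in basal GABA-CB1 mice, beside 0.245% of all genes), *Ptgs2*, which encodes cyclooxygenase-2, an enzyme that also oxygenates 2-AG and is induced by neuronal activity. It fell by 0.67 in basal GABA-CB1-KO mice (SE 0.07, adjusted p = 0.000668), from 45.4 to 59.1 CPM in WT mice (median 47.9, n = 6) to 28.01 to 34.2 CPM (median 31.2, n = 6). After open field, GABA-CB1-KO mice had 28.4 to 57.0 CPM (median 29.3, n = 5) and WT mice 39.5 to 53.5 CPM (median 43.1, n = 7), with a log2 fold change of -0.32 (adjusted p = 0.384). The change of this effect with state, 0.35, was not called by edgeR (adjusted p = 0.362). Over both states the effect in GABA-CB1 mice was -0.50 (adjusted p = 0.00674). The *Ptgs2* effect differed between lines in the basal state (-0.82, adjusted p = 0.0237) and over both states (-0.56, adjusted p = 0.0449), and in basal Glu-CB1-KO mice it was 0.14 (adjusted p = 0.999).

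In the 4 comparisons, 39 of the 47 were tested, and the counts of higher against lower genes were 16 and 23, 11 and 28, 21 and 18, and 14 and 25. Medians lay between -0.035 and 0.0071. The receptor partners (9 genes, among them *Cnrip1*, *Sgip1* and *Gnao1*) and the 8 genes that drive 2-AG synthesis after synaptic activation, such as *Grm5*, *Chrm1* and *Plcb1*, gave 0 calls by genotype. Between open field and basal state over all mice, 3 of 40 genes were called, a share below the 8.63% of all genes. The open field raised *Gnai3*, a G protein subunit to which CB1 couples, by 0.08 (adjusted p = 0.00216). It lowered *Pla2g4e*, encoding an N-acyltransferase that makes the precursors of N-acylethanolamines, (-0.41, adjusted p = 0.0101) and *Alox12*, a lipoxygenase, (-0.45, adjusted p = 0.0207). *Alox12* was near 0.57 CPM on average, so its values rest on few reads.

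Within groups, some enzymes moved together from mouse to mouse. Deviations of log2 CPM from the 8 group means were compared over the 45 pairs of members, with 100000 permutations of libraries within groups and Benjamini-Hochberg adjustment over the pairs. The deviations of *Dagla* and *Mgll*, which make and break down 2-AG, had r = 0.74 (adjusted p = 0.00135, rho = 0.69, adjusted p = 0.00135, n = 48, permutation test, two-sided). *Dagla* and *Faah* had r = 0.61 (adjusted p = 0.00495, rho = 0.59, adjusted p = 0.00315, permutation), *Mgll* and *Faah* r = 0.58 (adjusted p = 0.00709, rho = 0.46, adjusted p = 0.0442, permutation), and *Abhd12* and *Gde1* r = 0.49 (adjusted p = 0.00709, rho = 0.45, adjusted p = 0.0379, permutation). These 4 of 45 pairs passed, all with positive r. Without the 2 libraries farthest from the median of the first gene, r was 0.67, 0.50, 0.46 and 0.42. Within the 34 libraries that did not stand apart r was 0.69, 0.67, 0.60 and 0.56, and within the 14 that did it was 0.87, 0.81, 0.75 and 0.23.

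Among 15569 genes, none was closer to *Mgll* than *Dagla*, while *Mgll* ranked 13th for *Dagla*, *Faah* 76th for *Dagla* and *Gde1* 449th for *Abhd12*. Neuronal marker levels moved with these genes. The summed glutamatergic markers had r = 0.59 with *Dagla*, 0.60 with *Mgll* and 0.43 with *Faah*, and the GABAergic markers -0.54, -0.53 and -0.65 (n = 48, descriptions from the same libraries). *Camk2a* made up most of the glutamatergic sum, with a median of 5445 CPM beside 7619 CPM for all 6 markers. After both marker sums were regressed out, r was 0.42 for *Dagla* and *Mgll*, 0.20 for *Dagla* and *Faah*, 0.13 for *Mgll* and *Faah*, and 0.46 for *Abhd12* and *Gde1*.

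**Figure D5:**
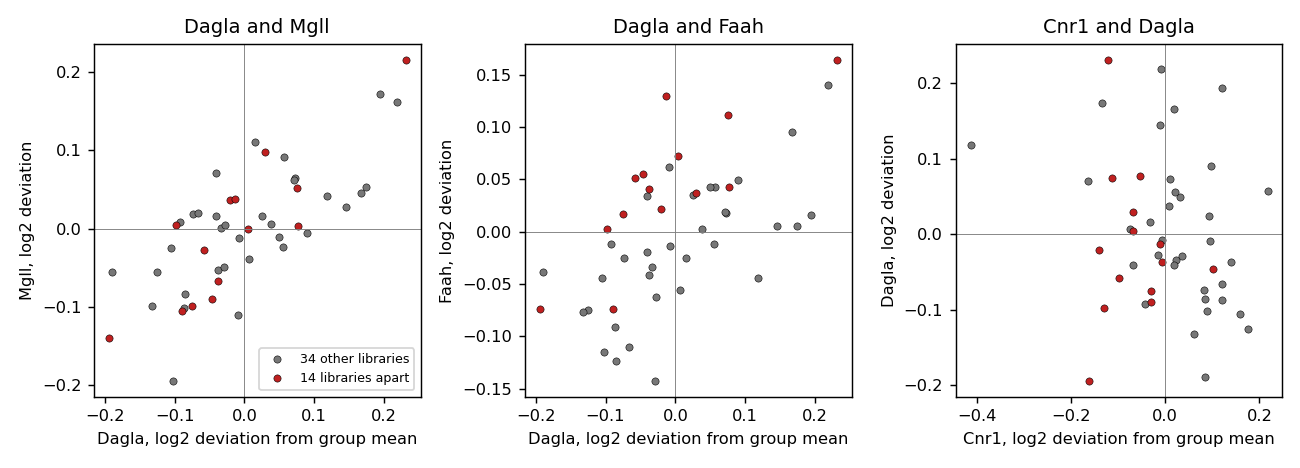
Deviations of log2 CPM from the group mean for Dagla against Mgll, Dagla against Faah and Cnr1 against Dagla, with 1 point per library and the 14 libraries that stood apart in red. The first 2 panels rise together (r = 0.74 and 0.61), and the third shows no such rise (r = -0.25).

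Of *Dagla*, *Mgll* and *Faah*, whose 3 pairs all passed, the upstream sequences of *Mgll* and *Faah* are shown. Each is the stretch from 250 to 11 bases before an annotated RefSeq start (240 bases, GRCm38.p6, 5′ to 3′ on the gene's strand), that of *Mgll* at chr6:88724162-88724401 (plus strand, the upstream of its 2 starts) and that of *Faah* at chr4:116017935-116018174 (minus strand). Capitals mark the GC box GGGCGG on either strand and the E box CACGTG, whose letters do not overlap.
Mgll: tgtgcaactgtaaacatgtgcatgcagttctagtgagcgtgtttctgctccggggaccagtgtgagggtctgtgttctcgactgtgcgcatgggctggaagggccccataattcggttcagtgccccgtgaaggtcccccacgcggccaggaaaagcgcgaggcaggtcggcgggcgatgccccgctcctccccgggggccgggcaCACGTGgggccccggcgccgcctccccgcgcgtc
Faah: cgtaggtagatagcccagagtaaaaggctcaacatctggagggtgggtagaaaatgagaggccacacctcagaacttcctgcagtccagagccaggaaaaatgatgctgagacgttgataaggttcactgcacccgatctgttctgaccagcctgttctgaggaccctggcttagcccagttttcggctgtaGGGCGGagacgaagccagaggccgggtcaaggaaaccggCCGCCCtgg
The *Mgll* stretch held 23 CpG and a GC content of 67.5%, and the *Faah* stretch 9 CpG and 55.8%, beside medians of 5 CpG and 52.1% over 32851 promoters of the same length. A GC box was found 2 times for *Faah* and 0 times for *Mgll* (31.3% of promoters hold it), and an E box 0 times and 1 time (5.69%). The TATA box TATAAA (12.1%), the CCAAT box CCAAT (33% of promoters) and the cyclic AMP response element TGACGTCA (1.44%) were searched on both strands and not matched in either stretch.

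*Napepld* was the member whose deviations moved most with subregion markers. It had r = 0.68 with 7 dentate granule cell markers, 0.53 with 7 markers of CA3 and CA2, and -0.70 with 6 CA1 markers (n = 48, a description). Its SD reached 14.2% of the mean in one group, against at most 4.42% for *Abhd12*. *Cnr1* had r = 0.61 with the GABAergic markers, -0.59 with the choroid plexus markers and -0.63 with the first component. Its r was -0.05 with the cholecystokinin interneuron markers, 0.14 with those of somatostatin and parvalbumin interneurons and 0.09 with the glutamatergic markers. The library with the highest choroid plexus level had a *Cnr1* deviation of -0.41, and r without it was not computed. *Cnr1* had no partner among the enzymes, with r between -0.25 (*Dagla*) and 0.29 (*Gde1*), none of which passed the adjusted permutation test (adjusted p between 0.23 and 0.625).

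Over all 48 libraries, the genes most like *Cnr1* in log2 CPM were *Gpr83* (r = 0.76), *Ostf1* (0.75) and *Pam* (0.72), and the least like it *Tubgcp3* (-0.59), *Fars2* (-0.58) and *Wwc1* (-0.57), of 15569 compared. In the deviations from the group means, *Rnf11* (0.90), *Rab39b* (0.87) and *Tmem30a* (0.86) were most like it and *Kank3* (-0.76), *Tcirg1* (-0.76) and *Pcolce2* (-0.74) least. The second set moved with the first component too (r from -0.78 to -0.63 and from 0.70 to 0.82).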

How the data were processed

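RNA-sequencing of hippocampal CA tissue from 48 male mice was used, in 8 groups of line, genotype and state taken from the sample labels. Numbers of mice follow these labels. For the GABA-CB1 open field groups, the study's text gives the sizes the other way round. The authors amplified the RNA (NuGEN Ovation kits), trimmed the single-end reads, mapped them against mm10 by STAR 2.6.0a and counted reads by strand with featureCounts 1.6.2, and they deposited raw counts per gene. The trimming, the annotation and the strand setting are therefore part of the values, and reads without molecular identifiers are not independent molecules, so errors are given as the spread between mice. No measurement column was left unused. In each group, no pair of libraries was a duplicate (123 pairs, lowest chi-square per degree of freedom 2.93).

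Tests used edgeR 4.0.16 (quasi-likelihood, TMM, filterByExpr, a group-means model, Benjamini-Hochberg over all genes, 0.05) on the 12 libraries of a comparison, the 24 of a line or state, or all 48. The study itself used DESeq2, here run as an alternative (DESeq2 1.42.0). Intervals of log2 fold changes came from the F statistic. CPM were normalized by TMM over 48 libraries, and log2 CPM used a prior count of 2. Levels between genes were divided by the exonic length in the table. The alternatives were DESeq2, RLE size factors, a minimum of 1 count in total or of 10 counts per library as the filter, a joint fit of all 48 libraries, the animal-number range as a covariate, a replicate block and each library left out. After the data were seen, the first component as a covariate, and fits without 14 and 2 libraries, were added. The tests were also tried on simulated counts, with 1 dispersion for all genes and known changes larger than any enzyme effect here. That trial does not cover effects of the size seen for the enzymes.

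The members and gene lists were chosen with earlier results of these data known. Named genes were the 10 members, any of 47 further endocannabinoid genes called in a comparison, and the 3 genes most and least like *Cnr1*. Genes named without a call only illustrate a list. Replicate numbers did not pair the mice. Upstream sequences are from RefSeq (GRCm38.p6), which held them for 8 of the 10 members. Intronic reads and RT-qPCR were not used here.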

Additional observations from a re-analysis of the deposited data

Results flagged for a closer look

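The genotype effect on *Cnr1* differed between lines, with the GABA-CB1 effect minus the Glu-CB1 effect at -0.50 (log2) in the basal state, -0.73 after open field and -0.62 over both states. The effect on *Gde1* differed between lines in the basal state (-0.17) and that on *Faah* after open field (0.22), both with an adjusted p close to 0.05 by edgeR. Within groups, 80 sets of values (10 genes in 8 groups) were searched for a library far from the rest. The *Mgll* value of 189.6 CPM in basal GABA-CB1-KO replicate 4 lay below the next lowest of 194.8 CPM. The *Abhd4* value of 68.3 CPM in open field Glu-CB1-KO replicate 7 lay above the next highest of 62.4 CPM. Chance flags about 1 in 20 such sets, and 2 of 80 were found.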

How the results depend on the processing

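Every fall of *Cnr1* in KO mice kept its direction and its call in each alternative and with each library left out. In the 15 comparisons no called value changed sign. Of 1420 values of single members under the 10 alternatives other than leaving out 1 library, 1404 kept their side of the threshold, 13 lost it and 3 gained it. For the difference between lines in the basal state, 2 members were called. The count was 1 with no filter beyond 1 count and with all 48 libraries in one fit, 0 with the replicate block, and between 1 and 2 with single libraries left out. After open field, 2 members were called. The count was 1 with RLE size factors, no filter, a minimum of 10 counts per library, a joint fit of all 48 libraries, the animal-number range as a covariate, and without the 14 or the 2 libraries. It was 0 with the replicate block, and between 1 and 3 with single libraries left out. Over both states the count was 1, and between 1 and 2 with single libraries left out: without open field GABA-CB1-KO replicate 1, *Gde1* was called too (-0.12, adjusted p = 0.0132). In the GABA-CB1 line, the change of the genotype effect with state gave 1 call, *Dagla*, with the first component as a covariate, against 0. The cause of these changes was not tested.

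The replicate numbers do not pair the mice. Of 21 same-numbered pairs of KO and WT mice, 4 had deviations correlated above 0.1 and 2 correlated best with their own number. With the replicate block, *Cnr1*, *Gde1* and *Faah* lost their calls for the difference between lines in a single state (adjusted p = 0.075 and 0.0744 for *Cnr1*, 0.516 and 0.436 for the others), and no other member's call changed. For these differences the block kept only libraries whose replicate number occurred in every group. It thus rested on fewer mice and fewer degrees of freedom.

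Depth does not limit these genes (at least 809 reads each). The spread between 5 to 7 mice does. The 95% interval of an enzyme reached between 0.055 and 0.20 on the log2 scale to either side in the 4 comparisons of KO and WT. Changes smaller than the reach of their own interval could not be told from 0. Larger ones could still miss the threshold after adjustment, as *Mgll* did in basal GABA-CB1 mice (-0.13, edgeR adjusted p = 0.219).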
